A study of Mus musculus with 6 samples.

Results

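After crotonate, 3408 H3K27me3 peaks lay inside the bodies of protein-coding genes at places where no H3K27me3 peak had been called after water. They were selected on the deposited H3K27me3 peak calls, out of the 15879 of the crotonate list: a peak had to overlap none of the 7643 water H3K27me3 peaks by even 1 bp, had to overlap the span of a protein-coding RefSeq gene of GRCm38, and had to stay clear of the 2 kb either side of every start and end of such genes. The cells were neural stem and progenitor cells taken from the E13.5 mouse forebrain into culture, grown with EGF and FGF and kept for 24 h with either water or 10 mM crotonate, a short-chain fatty acid salt that cells turn into crotonyl-CoA. The assay was CUT&Tag, where a transposase tethered to an antibody cuts and tags the DNA at a histone mark, with 1 library each of H3K4me3, H3K27me3 and IgG per treatment. The 4 lists for the marks contain 52750 peaks in all, and IgG (2 samples) was not analysed here. No genotype, strain or sex is given. With 1 library per mark and treatment the differences have no replicate check, so no p-value is given. Intervals are 95% intervals, exact binomial (Clopper-Pearson) for shares and exact Poisson for counts per length. They cover counting error only, and peaks that share a gene are not independent.

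H3K27me3 is laid down by the EZH2 or EZH1 subunit of Polycomb repressive complex 2, and is read by canonical Polycomb repressive complex 1. In mammals it is recruited chiefly to CpG-rich promoters of silent developmental genes, and can spread from there along chromatin as broad domains. Inside gene bodies it is found over silent genes, while transcription through a gene tends to keep it out. H3K27me3 also marks the inactive X chromosome of female cells. H3K4me3 marks active and poised starts of transcription, and its overlap with H3K27me3 is called bivalent.

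Of 5445 annotated start windows of RefSeq (250 bases before to 50 after a start, GRCm38.p6) that lay wholly in gene interiors, 46 (0.845%) were touched by one of the new intragenic peaks. Over all positions 22 windows lay entirely inside such a peak. These 300-base windows are printed for starts that lie inside a gene body, because the rule removed the outer ends of genes but not starts within them. The 5 shown were picked after their values were seen, for their range of CG and of H3K4me3. The letters CG, the dinucleotide CpG, are in capitals, and each window reads 5′ to 3′ along its gene. The first, chrX:59567299-59567598 on the minus strand, is a start inside Fgf13, which encodes a relative of the FGFs that acts on sodium channels. It held 40 CG, and its 300 bases carried H3K4me3 in both treatments. The second, chr12:89812233-89812532 on the plus strand, lies in Nrxn3, a presynaptic neurexin gene. The third, chr14:124192497-124192796 on the minus strand, lies in Fgf14, and the fourth, chr4:57567998-57568297 on the plus strand, in Pakap, the joint locus of paralemmin 2 and an A-kinase anchor protein. The last, chr7:91090536-91090835 on the plus strand, lies in Dlg2, a postsynaptic scaffold gene, and is shown as the CpG-poor contrast with 3 CG.
Fgf13: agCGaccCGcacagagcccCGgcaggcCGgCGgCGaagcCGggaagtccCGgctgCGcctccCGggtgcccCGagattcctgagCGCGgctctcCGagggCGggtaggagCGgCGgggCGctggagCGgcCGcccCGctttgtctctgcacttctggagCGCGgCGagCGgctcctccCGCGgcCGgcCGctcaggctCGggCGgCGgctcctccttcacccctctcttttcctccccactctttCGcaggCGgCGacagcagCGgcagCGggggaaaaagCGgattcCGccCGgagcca
Nrxn3: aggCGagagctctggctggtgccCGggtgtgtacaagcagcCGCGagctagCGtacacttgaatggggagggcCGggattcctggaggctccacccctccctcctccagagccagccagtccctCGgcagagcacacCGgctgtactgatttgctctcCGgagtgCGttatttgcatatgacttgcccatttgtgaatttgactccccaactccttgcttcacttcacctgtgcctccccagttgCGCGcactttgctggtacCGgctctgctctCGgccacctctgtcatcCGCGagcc
Fgf14: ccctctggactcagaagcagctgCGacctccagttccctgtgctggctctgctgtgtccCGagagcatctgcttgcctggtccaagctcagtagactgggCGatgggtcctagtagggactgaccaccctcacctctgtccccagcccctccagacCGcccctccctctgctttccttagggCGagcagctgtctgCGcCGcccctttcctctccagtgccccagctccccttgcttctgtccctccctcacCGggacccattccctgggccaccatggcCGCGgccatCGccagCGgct
Pakap: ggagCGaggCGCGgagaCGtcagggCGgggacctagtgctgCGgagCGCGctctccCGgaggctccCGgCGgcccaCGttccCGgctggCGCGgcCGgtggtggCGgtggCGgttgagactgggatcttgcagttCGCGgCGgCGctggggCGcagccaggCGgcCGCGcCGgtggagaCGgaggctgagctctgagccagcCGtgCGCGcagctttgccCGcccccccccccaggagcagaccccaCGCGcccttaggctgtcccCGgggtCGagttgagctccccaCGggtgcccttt
Dlg2: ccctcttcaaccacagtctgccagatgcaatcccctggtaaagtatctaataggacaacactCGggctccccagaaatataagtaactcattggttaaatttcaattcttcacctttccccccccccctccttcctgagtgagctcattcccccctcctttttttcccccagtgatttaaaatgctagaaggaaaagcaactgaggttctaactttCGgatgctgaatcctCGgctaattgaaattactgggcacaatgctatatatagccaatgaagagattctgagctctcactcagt

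The new H3K27me3 peak over the Fgf13 start was weak, 844 bp long with an authors' fold enrichment of 4.07 and −log10 q of 2.12. That over the Nrxn3 start measured 1538 bp with a fold enrichment of 5.27, and the nearest water H3K27me3 peak was 2785 kb away. The Nrxn3 window held 16 CG and, like that of Fgf13, was covered by H3K4me3 over 300 bases after water and after crotonate. At Fgf14 the peak was 1491 bp long with a fold enrichment of 3.94, over a window with 12 CG. At Pakap it was 2589 bp long with 5.59, over a window with 37 CG. In these last windows H3K4me3 was called after crotonate only, over 250 and 300 bases, so both marks were called there after crotonate and neither after water. Over the 22 enclosed windows H3K4me3 was called on 5 after water and 9 after crotonate, and over the 46 touched ones on 10 and 15. Of all 5445 interior windows, 1170 carried it after water and 1353 after crotonate. The Dlg2 peak was the strongest of the 22 windows, 2322 bp long with a fold enrichment of 9.08 and −log10 q of 13.7, and no H3K4me3 peak lay on its window in either treatment. Among the 46 interior windows that a new peak touched, 21 (45.7%, 30.9 to 61.0) held 10 or more CG. The same held for 1545 of the 5445 interior windows (28.4%, 27.2 to 29.6), for 77 of 151 interior windows touched by an intragenic H3K27me3 peak found in both lists (51.0%, 42.7 to 59.2), and for 14281 of 32851 start windows of all kinds (43.5%). CG reads the same on both strands, and windows of 1 gene can overlap.

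2 new intragenic peaks lay on microRNA sequences. One, 547 bp long with a fold enrichment of 6.59, covered the hairpin of Mir449a inside Cdc20b on chromosome 13, a locus known from multiciliated cells. The other, 2074 bp long with the same fold enrichment, covered mmu-miR-3113-3p inside Huwe1, a ubiquitin ligase gene on chromosome X. The mature RNAs are printed with the seed, bases 2 to 8, in capitals, and no seed is shared among the 3.
mmu-miR-449a-5p: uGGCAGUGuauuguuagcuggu
mmu-miR-449a-3p: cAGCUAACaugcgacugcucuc
mmu-miR-3113-3p: uCCUGGCCcugguccugguc

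Cell type markers were read for H3K4me3 at their annotated ends. All 10 neural stem and progenitor markers, among them Sox2, Nes and Hes5, carried H3K4me3 at an annotated end in both treatments. So did 5 of 6 neuronal markers, while 0 of 5 microglial and 0 of 5 fibroblast markers carried it after water, and 0 and 1 after crotonate. Of the oligodendrocyte lineage markers 3 of 6 carried it after water and 4 after crotonate, and of the astrocyte and vessel markers 1 of 4 each in both treatments. The mark at a gene does not tell which cells carry it. The fragment weights read from the pileup values put the H3K27me3 library after crotonate at 0.811 times the depth of that after water, and the background used in calling at 1.80 times. This touches every count of new peaks. The lowest summit of any water H3K27me3 peak held 14 fragments, and that of the crotonate list 8. Of the new intragenic peaks, 1852 (54.3%, 52.7 to 56.0) had fewer than 14 fragments at the summit, and 982 (28.8%) still did after their counts were divided by 0.811. For a matched background depth, the summit pileup and the local background of each crotonate peak were both divided by 1.80. With p recomputed from these, 1955 of the 3408 reached the lowest −log10 p of the water H3K27me3 list, 3.46.

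The new intragenic peaks were short and weak. Their length ran from 332 to 6623 bp with a median of 595.5 bp, and 120 reached 2000 bp. The authors' fold enrichment had a median of 4.52 (quartiles 3.90 and 5.25, highest 14.3), and −log10 q a median of 3.21 (quartiles 2.30 and 4.54, highest 27.1). At their summits 8 to 48 fragments were stacked, with a median of 13. These values took part in the choice of the peaks and are a description. The 1526 intragenic crotonate peaks that overlapped a water peak were 1954.5 bp long in the median, and their −log10 q had a median of 8.46. The new peaks covered 2.65 Mb and those others 4.81 Mb. New peaks were 69.1% of the 4934 intragenic crotonate peaks, and 63.2% of the crotonate list as a whole. In the other direction, 210 of 2190 intragenic water peaks (9.59%) had no counterpart after crotonate, with a median length of 487 bp and none above 1388 bp.

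The strongest new peak lay in Trp73, a p53 family gene with roles in neural development and ciliated cells, at chr4:154079418-154083079. It was 3.66 kb long with a fold enrichment of 14.3 and −log10 q of 27.1, and the nearest water H3K27me3 peak was 6.84 kb away. Next came Flt4, the receptor gene of lymphatic vessel growth, at chr11:49632471-49638359, with 5.89 kb and −log10 q of 25.1. The peak in Cbfa2t3, a transcriptional corepressor gene of blood cells, had 1.71 kb and 25.1. Lingo1, which encodes a neuronal inhibitor of myelination, had one of 2.30 kb with −log10 q of 20.7, and the agouti pigment gene a one of 3.11 kb with 17.2. These 5 all lay within 17.0 kb of a water peak. The others of the 12 strongest were in Tmem63c, Pax2, Crocc2, Hmcn2, Vipr1, Ikzf1 and Ccdc73, with −log10 q from 14.6 to 16.3. Pax2 and Ikzf1 encode transcription factors of kidney and eye and of lymphocytes, and Vipr1 a receptor for vasoactive intestinal peptide. Of the 12, only the peak in Crocc2, a gene related to the ciliary rootlet protein, was far from any water peak, at 285 kb, and it was also one of the longest at 5.73 kb. The longest of all, 6.62 kb, lay in Thsd4, an extracellular matrix gene, with a fold enrichment of 5.63. Next in length were the peaks of Tenm4 (6.08 kb), Flt4, Crocc2, Hmcn2 (5.45 kb) and Aspg (4.64 kb).

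The limits of the rule fell among peaks of this same weak kind. The peaks just outside the 2 kb windows were in Alpk1 and Slc47a1, at 17 and 18 bp from the window, with fold enrichments of 3.90 and 4.24. Those just inside, which overlapped a window by 5 and 6 bp, were at Krt1 and Rasgrf2, with 4.57 and 4.44. At the other limit, peaks in Kirrel3 and Lamb3 lay 2 and 14 bp from a water peak, and peaks in Plxna4 and Gse1, left out, overlapped one by 2 and 4 bp.

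Most of the new intragenic peaks lay near H3K27me3 already called after water. A water peak was within 2 kb of 23.4% of them (22.0 to 24.9), within 10 kb of 55.7% (54.0 to 57.4, 1899 of 3408) and within 100 kb of 84.8%. On both sides within 10 kb there was a water peak for 394, on one side for 1505 and on neither for 1509. The median distance was 7480 bp, against 8504 bp for the 5340 new peaks between genes, 52.7% of which (51.3 to 54.0) had a water peak within 10 kb. For the 1294 new peaks at gene ends the distance was 16561.5 bp in the median and the share 45.4% (42.7 to 48.2). Another new intragenic peak lay within 10 kb for 2323 of them (68.2%), a share that was not taken for the other groups of peaks. The new intragenic peaks over 100 kb from any water peak numbered 519 and lay in 296 genes. Their median length was 541 bp, against 636 bp for those within 10 kb of one.

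**Figure D1:**
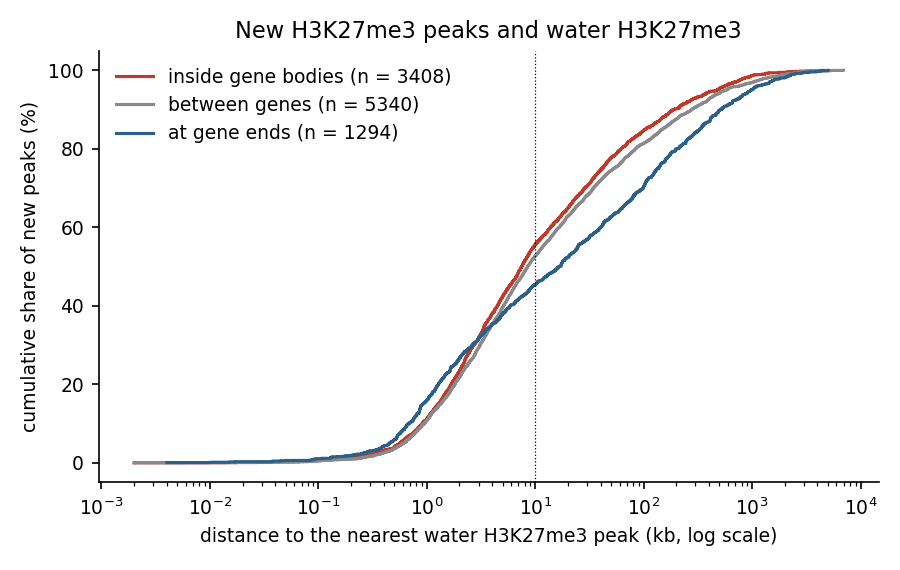
Cumulative share (%) of new H3K27me3 peaks against the distance to the nearest water H3K27me3 peak (kb, log scale), for peaks inside gene bodies (red, n = 3408), between genes (grey, n = 5340) and at gene ends (blue, n = 1294). The dotted line stands at 10 kb, where the curves read 55.7%, 52.7% and 45.4%.

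The 3408 peaks fell in 1280 genes, 7.27% of the 17598 protein-coding genes with any interior left between the end windows, and 25 of them lay over more than 1 gene. They were unevenly spread: 622 genes held 1 peak, while 193 genes with 5 or more held 1618 peaks, 47.5% of all. Long genes were hosts more often, 76 of 227 genes over 500 kb (33.5%) against 208 of 7560 of at most 20 kb (2.75%), but per length they held fewer, 1.81 peaks per Mb of interior (1.63 to 2.02) against 5.61 (4.97 to 6.30). Along the 944 host genes whose strand the start table gives, the first of 4 equal stretches from the 5′ end held 22.9 peaks per Mb of interior (21.3 to 24.7), the second 20.0, the third 20.3 and the last 15.9 (14.5 to 17.3). The reference used here gives gene spans and starts without exons, so exonic and intronic positions were not told apart.

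Tenm4, which encodes a teneurin, a transmembrane protein of neuronal connection and myelination, held the most new peaks. It spans 740 kb of chromosome 7 (96171244 to 96911093), and its H3K27me3 peaks numbered 34 over 110 kb after water and 79 over 190 kb after crotonate, 53 of the latter new. The covered share of the gene was 14.9% and 25.6%. Covered shares and lengths, here and below, count all H3K27me3 peaks in a gene. The new peaks of Tenm4 alone summed to 47.3 kb. The new peaks were 334 to 6076 bp long and none was more than 28.1 kb from a water peak. Myo1d, an unconventional myosin gene on chromosome 11, held 30, and its covered share was 23.8% after water and 36.5% after crotonate. In Skap1, a T cell adaptor gene, 26 new peaks stood beside 26 water peaks, and the covered share was 18.7% and 30.9%. Ebf2, a transcription factor gene of adipocyte and neuron development, differed from these: 3 water peaks covered 12.7 kb, most of it in a domain at its lower end, and 21 new peaks lay among them and up to 90.5 kb away, for 32.5 kb after crotonate. Slit3, whose product guides axons, also had 21, with 8.60 kb covered after water and 32.3 kb after crotonate. Tgfbr3, the betaglycan gene, had 21 new peaks in a gene that was already covered over 38.7% after water, and then over 56.5%. Mid1, Nhs and Huwe1, the other genes with the most new peaks, are on chromosome X.

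**Figure D2:**
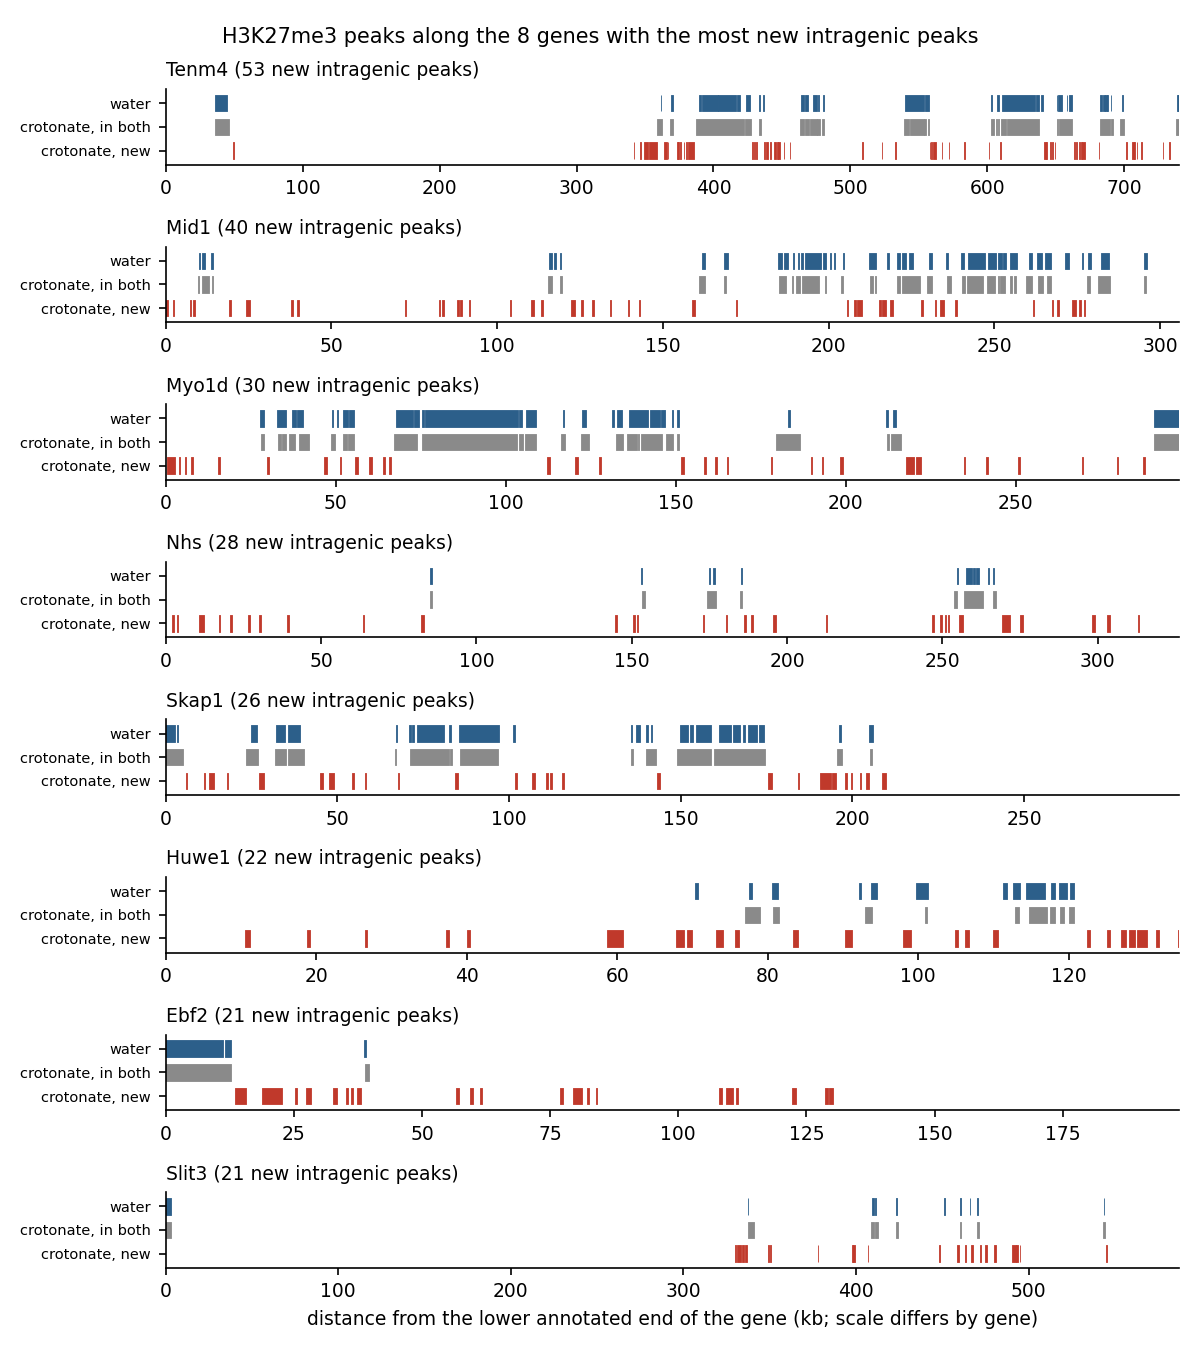
H3K27me3 peaks along the 8 genes with the most new intragenic peaks, against the distance (kb) from the lower annotated end of each gene. Rows show peaks called after water (blue), crotonate peaks that overlap a water peak (grey) and crotonate peaks that do not (red); the new peaks of Tenm4 (53) lie among its 34 water peaks, and those of Ebf2 (21) lie up to 90.5 kb from its 3 water peaks.

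The host genes were next read by the marks at their ends after water. The rule used the water H3K27me3 calls, so the H3K27me3 values are a description, while H3K4me3 took no part in it. H3K27me3 at an end after water was found at 635 of the 1280 host genes (49.6%, 46.8 to 52.4) and at 1791 of the 17598 genes with an interior (10.2%). H3K4me3 at an end was found at 499 hosts (39.0%, 36.3 to 41.7) and at 10719 of all (60.9%). Genes with H3K27me3 alone at their ends held 17.4 new peaks per Mb of interior (16.4 to 18.5), those with both marks 8.65 (8.06 to 9.28), those with neither 3.58 (3.35 to 3.82) and those with H3K4me3 alone 1.06 (0.975 to 1.15). Intragenic peaks called after water stood in much the same order, at 10.1, 8.44, 1.56 and 0.687 per Mb. New peaks were 73.4% of the intragenic crotonate peaks in genes with H3K27me3 alone, 58.6% with both marks, 76.1% with neither and 67.8% with H3K4me3 alone. A water H3K27me3 peak somewhere in the span was found in 836 hosts (65.3%, 62.6 to 67.9) and in 1973 of the 17598 genes (11.2%). These 1973 genes made up 218 of the 950 Mb of gene interior. In all, 2659 of the new peaks (78.0%, 76.6 to 79.4) lay in a gene with such a water peak, and 749 (22.0%) did not.

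Among those 749, strong peaks over 100 kb from any water peak were picked for description after their values were seen. That of Crocc2 had the highest −log10 q of them. The Dlg2 peak described above, with −log10 q of 13.7 and 171 kb from water H3K27me3, is not among them because Dlg2 held 1 water peak elsewhere in its span. Another lay in Slc29a4, a monoamine transporter gene, with a peak of 1.70 kb and a fold enrichment of 8.61. Ptprn2, a secretory vesicle phosphatase gene on chromosome 12, had peaks of 1.38 and 2.69 kb, 597 and 594 kb from the nearest water peak. Cacna1a, the gene of the P/Q-type calcium channel, had one of 2.63 kb with a fold enrichment of 8.28, at 304 kb. Sycp1, a meiotic gene, and Arid1b, a chromatin remodelling gene, had peaks of 1.53 and 0.996 kb, and the water peak nearest to that of Arid1b was 1436 kb away. Hydin, a gene of motile cilia, had one of 2.09 kb. These peaks stood well above the median of the new intragenic peaks, with 21 to 29 fragments at their summits in Crocc2, Slc29a4, Cacna1a, Sycp1, Arid1b and Hydin.

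As deposited, chromosome X held more new intragenic peaks per length than any autosome, but this order depended on the threshold. It had 429, or 10.2 per Mb of gene interior (9.24 to 11.2), and the autosomes together 2979, or 3.29 per Mb (3.17 to 3.41), a ratio of 3.10. Chromosome 11 came next with 7.02 per Mb, and chromosome 13 was the lowest autosome with 0.969. Intragenic water peaks were also dense on X, at 7.73 per Mb against 2.06 on autosomes, and new peaks were 63.8% of its intragenic crotonate peaks against 69.9% on autosomes. The new X peaks were weaker, with a median −log10 q of 2.30 against 3.21. The ratio of X to autosomes was 2.36 at a matched background depth and 1.59 when the crotonate list was cut to the length of the water list. Against chromosome 11 alone, X stood at 4.58 per Mb (3.96 to 5.27) and 4.42 (3.86 to 5.05) at a matched background depth. With −log10 q of at least 3 the order turned, at 4.18 (3.58 to 4.84) on X and 4.24 (3.69 to 4.85) on chromosome 11. With lists of equal length X had 1.49 (1.15 to 1.91) and chromosome 11 had 2.18 (1.79 to 2.63). Mid1, a microtubule-associated ubiquitin ligase gene, held 40 new peaks beside 39 water peaks in 306 kb, Nhs, the gene of Nance-Horan syndrome, 28 beside 11, and Huwe1 22 beside 12. Nhs and Huwe1 carried H3K4me3 at an end in both treatments and Mid1 in neither. Dmd, the dystrophin gene, had 14 new peaks with −log10 q of at most 4.72, and 2 water peaks that had no counterpart after crotonate. Which animals or how many contributed to the cultures is not given, so the sexes in each library cannot be told apart here.

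**Figure D3:**
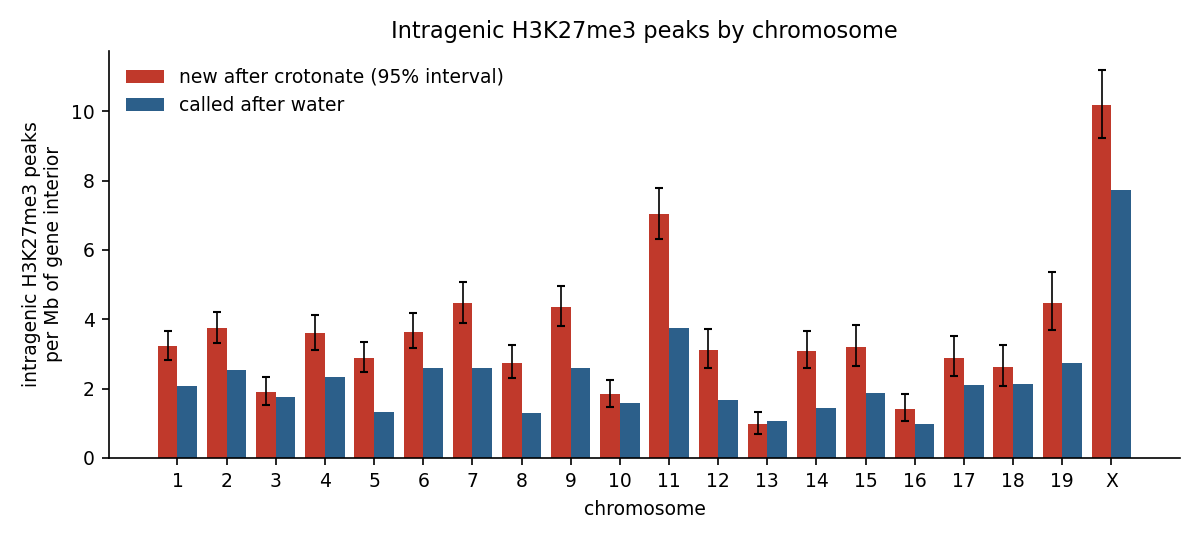
Intragenic H3K27me3 peaks per Mb of gene interior by chromosome: new after crotonate (red, bars with 95% Poisson intervals) and called after water (blue). As deposited, chromosome X stands at 10.2 and 7.73 and chromosome 11 at 7.02 and 3.74; chromosome Y, with no peak, is left out.

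Gene lists were read in the same way, against 7.27% of genes as hosts and 3.59 new peaks per Mb (3.47 to 3.71) over all genes. The rule used this contrast, so the counts describe where the peaks lie. Developmental transcription factor genes had the highest density, with 33 of 76 as hosts and 153 peaks, 18.5 per Mb (15.7 to 21.7), and they were above all genes after water too, at 16.7 against 2.30 per Mb. Pax2 held 18 new peaks, which summed to 17.9 kb. All its H3K27me3 peaks together covered 39.1% of it (35.9 kb) after water and 72.4% (66.4 kb) after crotonate. Pax5 and Lmx1a, factors of B cells and of midbrain dopamine neurons, held 11 and 14, and Prdm16, a regulator of stem cell and brown fat identity, 11. Foxp2, a neuronal forkhead gene with H3K4me3 and no H3K27me3 at its ends after water, held 11 weak ones, the strongest with −log10 q of 4.16. Of 29 forebrain neurogenesis factor genes with an interior 3 were hosts, at Cux2, Emx1 and Myt1l, and the list had 1.72 new peaks per Mb (0.743 to 3.39). At a matched background depth 2 of these 8 peaks, in 1 gene, were left. None of 36 Polycomb and trithorax subunit genes was a host, with an upper limit of 9.74%, and 1 of 34 genes of crotonyl-CoA metabolism and crotonylation, the deacetylase gene Hdac9.

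Immune and haematopoietic genes came second in density, with 9 of 40 as hosts and 56 new peaks, 15.5 per Mb (11.7 to 20.2), of which Skap1 held 26 and Ikzf3, an Ikaros family gene, 16. Their water density was 13.9 per Mb. Of the Wnt, BMP, TGF-beta and FGF genes 16 of 56 were hosts (7.64 per Mb, 5.23 to 10.8). Wnt3a, a ligand of the dorsal midline, had 5 new peaks that summed to 5.24 kb. It was covered over 26.2% (11.2 kb) after water and 55.1% (23.5 kb) after crotonate. Wnt6 had 3 new peaks of 2.05 kb together, with 46.6% (14.4 kb) and 62.7% (19.4 kb) covered. In the Notch pathway 2 of 22 were hosts, Maml3, a coactivator gene, and Dtx1.

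Genes of neuronal membranes were hosts more often than genes at large but mostly had no higher density. The median gene length of these lists ran from 151 to 555 kb, against 24.5 kb over all genes. Whether length accounts for the host shares or densities was not tested. Of sodium and calcium channel genes 15 of 34 were hosts, and their 5.88 new peaks per Mb (4.32 to 7.82) stood against 2.13 water peaks per Mb. The strongest were in Cacna1d, an L-type calcium channel gene with 7 new peaks, and Cacna1a with 2, both with −log10 q of 10.8. Of potassium channel genes 10 of 38 were hosts (3.74 per Mb, 2.56 to 5.28). Kcnma1, the large-conductance calcium-activated channel gene, had 8 and the imprinted-domain gene Kcnq1 13. Glutamate and GABA receptor genes had 10 hosts of 35 (2.64 per Mb, 1.80 to 3.75), among them Gabbr2, a GABA-B receptor gene with 6 new peaks, and Grin2b, an NMDA receptor subunit gene with 4. Axon guidance genes had 10 hosts of 44, and 21 of their 41 new peaks were in Slit3. Synaptic adhesion genes had 13 hosts of 47, and 53 of their 93 were in Tenm4. Cadherin and protocadherin genes had 7 of 31, led by Cdh23, a gene of hair cell tip links, with 6 new peaks.

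Structural genes of other tissues were hosts too. Collagen and matrix genes had 11 hosts of 52 and 4.75 new peaks per Mb (3.45 to 6.37), against 2.05 in water, among them Adamtsl1 with 9, Col6a3 with 8 and Col22a1 with 6. Col6a3 held no water H3K27me3 peak at all. Muscle and heart genes had 6 hosts of 32, and 24 new peaks stood against 4 water peaks, though 14 of the 24 were in Dmd. Of the 4 water peaks, 2 had no counterpart after crotonate. Myh3, the embryonic myosin gene, and Mybpc2, a fast muscle myosin-binding protein gene, had 2 and 1 new peaks and no water H3K27me3. At a matched background depth 7 of the 24 muscle peaks were left, beside 1955 of 3408 overall.

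**Figure D4:**
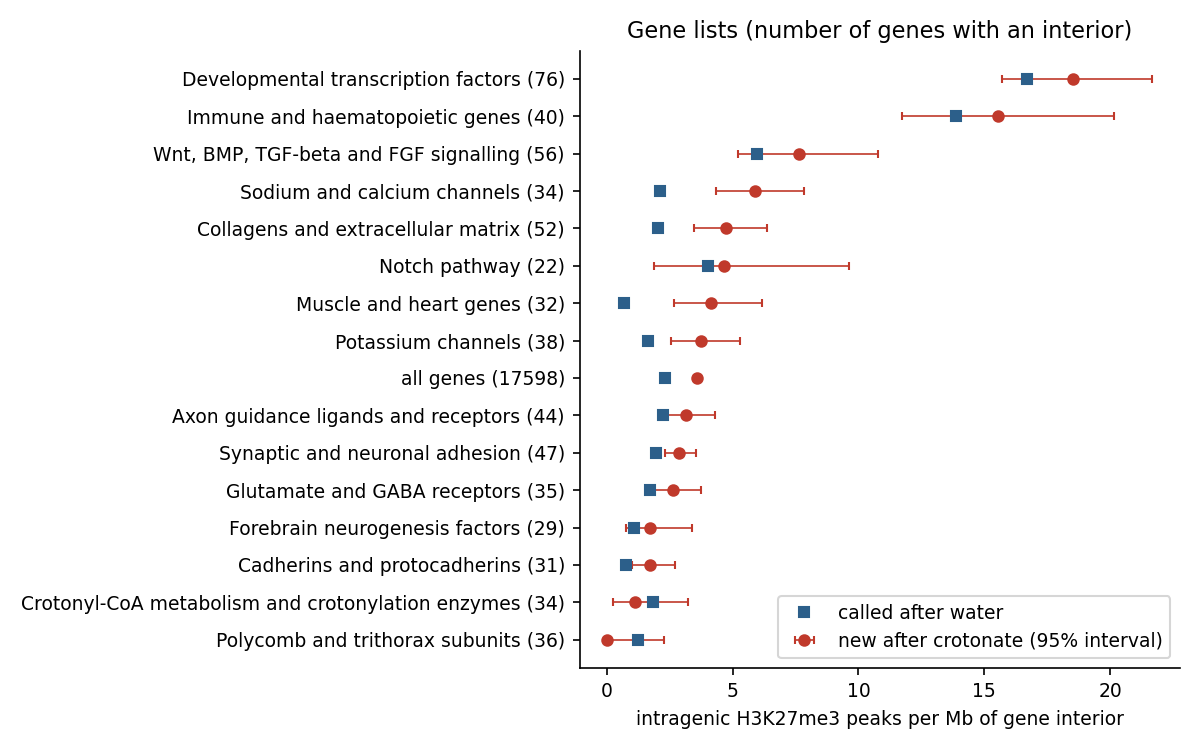
Intragenic H3K27me3 peaks per Mb of gene interior in each gene list, with the number of genes that have an interior: new after crotonate (red, points with 95% Poisson intervals) and called after water (blue squares). Developmental transcription factors stand at 18.5 and 16.7, all genes at 3.59 and 2.30, and muscle and heart genes at 4.16 and 0.692.

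H3K4me3 was rare on the new intragenic peaks. Its calls took no part in the choice, but the rule left out gene ends, where new peaks overlapped it most often. A low share was thus partly set by the rule. A crotonate H3K4me3 peak overlapped 53 of the new intragenic peaks (1.56%, 1.17 to 2.03) and a water H3K4me3 peak 24 (0.704%, 0.452 to 1.05). Over the whole crotonate H3K27me3 list, which includes gene ends, the shares were 10.5% and 6.27%. New peaks at gene ends had 17.2% (15.1 to 19.3) after crotonate, those between genes 0.449% (0.288 to 0.668), and intragenic peaks found in both lists 10.1% (8.63 to 11.7). Peaks found in both lists were longer, as given above. Read at the summit base alone, the shares were 1.14% (0.815 to 1.56) for the new intragenic peaks and 6.29% (5.13 to 7.63) for those in both lists. For 22 of the 53 new intragenic peaks on crotonate H3K4me3, an H3K4me3 peak there was itself absent from the water list. The same held for 56 of 222 at gene ends, 10 of 24 between genes and 47 of 154 intragenic peaks in both lists. The crotonate H3K4me3 list, with 16007 peaks, was also longer than that of water, with 13221. The share was 4.24% (2.68 to 6.35) among the 519 new peaks over 100 kb from water H3K27me3 and 1.05% (0.644 to 1.62) among those within 10 kb.

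The strongest H3K27me3 peaks on H3K4me3 were in Slc29a4, Mdfi, Rab11fip4, H2-Eb1, Cadps2 and Npffr1. In Slc29a4 H3K4me3 covered 499 bp of the 1702 bp after crotonate and 0 bp after water. In Mdfi, which encodes an inhibitor of myogenic factors, it covered the whole 947 bp after crotonate and none after water, and a water H3K27me3 peak ended 59 bp away. Rab11fip4 and Npffr1, genes of a Rab11 effector and a neuropeptide FF receptor, had 524 and 566 bp after crotonate and none after water. In H2-Eb1, an MHC class II gene, the new peak was 774 bp long, and H3K4me3 covered 664 bp of it in water and all of it in crotonate. Cadps2, a gene of dense-core vesicle release, had 241 and 551 bp, and the nearest water H3K27me3 peak was 554 kb away. In 4 of these 6 peaks, then, neither mark was called after water.

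**Figure D5:**
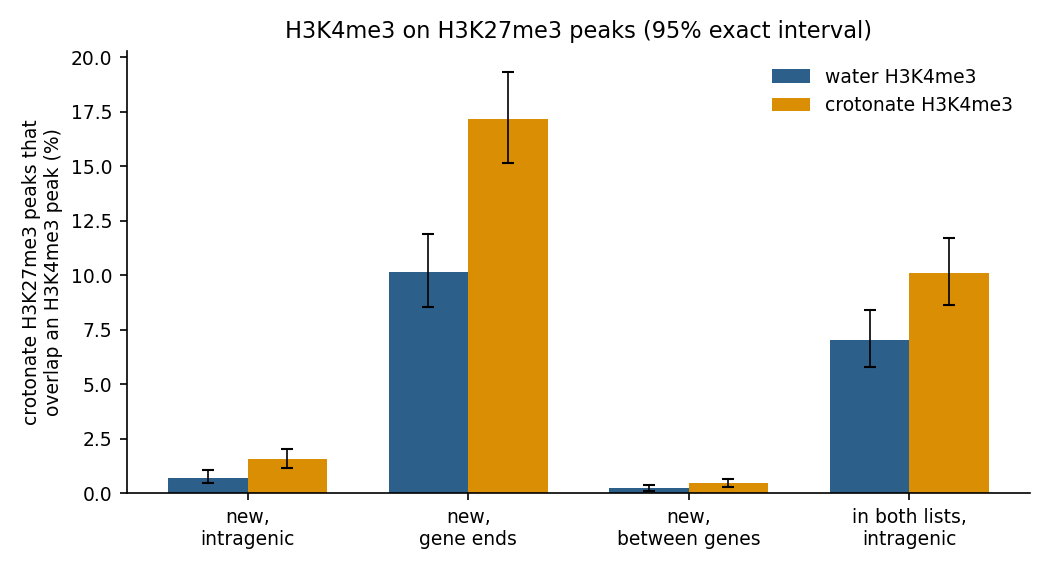
Share (%) of crotonate H3K27me3 peaks that overlap a water (blue) or crotonate (orange) H3K4me3 peak by at least 1 bp, with exact 95% intervals, for new peaks by position and for intragenic peaks found in both lists. New intragenic peaks stand at 0.704% and 1.56%, and new peaks at gene ends at 10.1% and 17.2%.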

How the data were processed

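The deposited lists give 1 line per peak, called per library, in the MACS2 column layout. Per the file headers, pileup is a signal (stacked fragments at the summit), and its deposited values carry a scaling that differs between libraries. Significance was deposited as −log10 of p and q, and every peak had q under 0.05. Fold enrichment is a ratio of summit signal to local background, per the file headers, and was read here with 1 added to both, which the headers do not state. MACS2 2.2.7.1, Picard 2.22.0, Bowtie2 2.4.1 and SAMtools 1.10, with GRCm38 as the build, come from the submitters' processing notes. For settings, duplicate handling and the background library the entry is: not given in the sources used here.

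Each H3K27me3 pileup was a whole number of steps of 0.636 (crotonate) or 0.287 (water), to within 0.00502, and 1 step was taken as 1 fragment. Relative depths came from these steps and the lowest local background per bp. The fragment length was taken to be that of the shortest peak. The p recomputed from pileup and background came within 1% of the deposited value for 99.7% of peaks of both H3K27me3 lists.

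Overlap needed 1 bp. RefSeq GRCm38.p6 gave the spans of 21887 protein-coding genes. A gene's interior is its span without any 2 kb end window. Counts used scipy 1.17.1, pandas 2.3.3 and numpy 2.4.6 under Python 3.11.15, the interval code was tested on simulated data, and bedtools 2.31.1 also gave 3408 peaks. Figures used matplotlib 3.10.9. Of 637 genes in 15 lists, 636 matched. The rule for named genes took the 12 strongest and 6 longest peaks, the 8 genes with most, 6 with H3K27me3 at an end in water, the 6 strongest peaks on H3K4me3, those at the limits, and up to 4 genes per list by −log10 q; further list members were named after their values were seen. The peaks, lists and rules were chosen with earlier results of these data known.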

Additional observations from a re-analysis of the deposited data

How the results depend on the processing

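Windows of 1 kb or 5 kb, genes of every type and a gap of 1 kb to water peaks kept the number of new intragenic peaks and of host genes within 1.5 times of 3408 and 1280. The number was 1509 with no water peak within 10 kb, 1853 with −log10 q of at least 3, 915 with the crotonate list cut to the length of the water list, and 1955 at a matched background depth. This last alternative was chosen after seeing the data. Host genes numbered 712 with no water peak within 10 kb and 564 with lists of equal length. The share on crotonate H3K4me3, 1.56%, was 2.19% with no water peak within 10 kb, 2.73% with lists of equal length and 1.06% when at least 50% of the peak had to be covered. The share with a water peak within 10 kb, 55.7%, was 50.2% with a gap of 1 kb, 59.9% with −log10 q of at least 3, 62.3% with lists of equal length and 59.8% at a matched background depth, and 0% by construction with no water peak within 10 kb. The median length of 595.5 bp became 558, 763, 986 and 748 bp with no water peak within 10 kb, −log10 q of at least 3, lists of equal length and matched depth. Fewer peaks enter under each of these thresholds, and the stricter ones drop short peaks; other causes were not tested. No paired analysis was possible because each group has 1 library. Absence from the water list means no call, not absence of the mark.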
